A study of Mus musculus with 28 samples.

Results

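Barcodes with high adult globin RNA were followed in single-cell libraries from juvenile mouse ovaries, where they carry the label of erythroid cells. A barcode was taken when it held at least 1000 genes, at most 20% of unique molecular identifiers (UMIs, each standing for 1 captured RNA molecule) from mitochondrial genes, at least 3 UMIs of Alas2, and at least 5% of UMIs from the 4 adult globin genes Hba-a1, Hba-a2, Hbb-bs and Hbb-bt. This rule found 124 of the 38274 barcodes that pass the gene and mitochondrial limits, out of 40594 deposited. The cells were thus chosen by their gene number, mitochondrial share, globin share and Alas2 count, and these values are given as a description. Except for the globins and Alas2, the RNA of the chosen cells was close to that of the other ovarian cells. Each of 4 erythroid markers outside the rule was absent from most of the chosen cells, although some other erythroid genes were raised. These values do not settle the label, and the chosen cells are called globin-rich cells.

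The study asked how ovaries respond to DNA damage with and without CHEK2, a checkpoint kinase that activates p53. C57BL/6J wild-type females and Chek2-/- females carrying the Chek2tm1b(EUCOMM)Hmgu allele received whole-body gamma irradiation of 0.5 Gy (IR) or a sham dose of 0 Gy (nonIR), and ovaries were taken 6 h later. Single-cell RNA was profiled in 4 libraries, 1 per condition, from females aged 7 days with the ovaries of 4 females pooled in each, so differences between these libraries have no replicate check. Bulk RNA was profiled in 24 libraries, 6 per condition, from ovaries of females aged about 1 week. The mutation is constitutive, so every cell of a Chek2-/- female lacks the normal gene, blood cells included.

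Red blood cells arise from erythroid precursors that make heme and globin in large amounts, anchor a protein skeleton to their membrane, then expel the nucleus and clear their mitochondria. Reticulocytes, the youngest cells without a nucleus, still hold globin RNA but few other transcripts. ALAS2 carries out the step that opens heme synthesis in erythroid cells, and 2 alpha and 2 beta chains form adult hemoglobin. An ovary is perfused by blood, and red cells can enter a suspension of dissociated tissue.

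The promoters of the 5 genes in the rule are shown because these genes define the cells. Sequences are the 150 bases before the annotated start in RefSeq, build GRCm38.p6, written 5′ to 3′ on the strand of the gene. Capitals mark matches on either strand to 4 motifs. AGATAA holds the core letters that GATA factors bind, and CCNCNCCC is the box that KLF factors bind. CCAAT is a common promoter box. The other motif is the TATA box, searched as ATATAA. Alas2 lies at chrX:150547267-150547416 (+), Hba-a1 at chr11:32283522-32283671 (+), Hba-a2 at chr11:32296342-32296491 (+), Hbb-bs at chr7:103827929-103828078 (-) and Hbb-bt at chr7:103813924-103814073 (-).
Alas2: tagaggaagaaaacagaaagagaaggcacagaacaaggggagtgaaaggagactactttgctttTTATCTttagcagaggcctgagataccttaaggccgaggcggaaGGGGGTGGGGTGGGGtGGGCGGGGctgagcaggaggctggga
Hba-a1: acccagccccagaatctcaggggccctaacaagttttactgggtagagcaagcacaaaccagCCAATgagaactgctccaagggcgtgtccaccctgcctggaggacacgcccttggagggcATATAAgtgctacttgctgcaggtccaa
Hba-a2: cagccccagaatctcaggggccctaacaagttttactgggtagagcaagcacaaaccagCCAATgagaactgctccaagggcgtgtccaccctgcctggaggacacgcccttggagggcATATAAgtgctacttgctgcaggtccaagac
Hbb-bs: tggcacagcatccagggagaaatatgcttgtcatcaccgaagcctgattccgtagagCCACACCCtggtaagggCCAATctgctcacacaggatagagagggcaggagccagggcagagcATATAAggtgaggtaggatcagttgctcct
Hbb-bt: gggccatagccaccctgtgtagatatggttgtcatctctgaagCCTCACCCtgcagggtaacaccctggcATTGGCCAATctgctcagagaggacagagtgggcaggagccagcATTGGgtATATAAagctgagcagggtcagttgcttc
All 4 globin promoters held CCAAT and ATATAA, the latter beginning 28 to 31 bases before the start, while the Alas2 window held neither. Alas2 instead held AGATAA on the opposite strand, 86 to 81 bases before the start, and 4 matches to CCNCNCCC, the first 3 overlapping, between 42 and 19 bases before the start. Hbb-bs and Hbb-bt each held 1 match to CCNCNCCC. Among 32851 promoter windows of the same length, 5.65% held AGATAA, 38.1% CCNCNCCC, 24.5% CCAAT and 5.35% ATATAA, so that a match to CCNCNCCC or CCAAT is common. The Hba-a1 and Hba-a2 windows shared an unbroken run of 147 bases, whereas the longest run shared by Hbb-bs and Hbb-bt was 14 bases. Counts of near-identical globin copies are uncertain between the copies, and the sum of the 4 is used where possible.

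The 4 single-cell libraries held 9091 to 10345 cells within the limits, and the bulk libraries summed to 17824920 to 32605519 estimated counts. Chek2 itself was measured at 18.5 to 24.6 CPM (counts scaled to library size by TMM) in the 12 wild-type bulk libraries and at 2.88 to 4.53 in the 12 Chek2-/- libraries, while the UMIs of the single-cell libraries gave 10.5 and 10.8 CPM in the wild type against 3.58 and 3.79 in Chek2-/-. These counts cover the whole gene, including exons that the allele may leave in place. Any pair of single-cell libraries shared 16 to 36 barcodes within the limits. No barcode was globin-rich in 2 libraries, although 3 barcodes of globin-rich cells also occurred in another library.

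Globin-rich cells made up 0.242% to 0.414% of the cells of each library. They were 36 of 9666 cells in wild-type nonIR (0.372%, exact binomial 95% interval 0.261 to 0.515), 25 of 10345 in wild-type IR (0.242%, 0.156 to 0.357), 25 of 9091 in Chek2-/- nonIR (0.275%, 0.178 to 0.406) and 38 of 9172 in Chek2-/- IR (0.414%, 0.293 to 0.568). The intervals overlapped within each genotype, and they cover counting error only. With a minimum of 500 genes the share was 0.400% in wild-type nonIR, 0.364% in wild-type IR, 0.306% in Chek2-/- nonIR and 0.420% in Chek2-/- IR. The spread was wider with a minimum of 200 genes, when the share was 1.62% in wild-type nonIR, 0.793% in wild-type IR, 1.04% in Chek2-/- nonIR and 1.23% in Chek2-/- IR. Over the 4 libraries together the share was 0.324% (0.270 to 0.386).

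The limit of 1000 genes decided most of what entered. Another 609 barcodes met the other 3 criteria with fewer than 1000 genes, 32.7% of them in wild-type nonIR, 17.2% in wild-type IR, 24.1% in Chek2-/- nonIR and 25.9% in Chek2-/- IR. These barcodes held little besides globin, with a median of 214 genes, 6112 UMIs and 93.2% of UMIs from adult globins. Few barcodes lay near the limit, with 1 at 900 genes or more below it and 1 globin-rich cell close above it, and 118 of the 124 globin-rich cells held over 2000 genes. Of the barcodes below the limit 21 held 500 genes or more, 14 of them in wild-type IR. At the other limits, 22 cells had enough globin but fewer than 3 Alas2 UMIs, 5 of them with none, and 14 had enough Alas2 with less globin, the highest at 4.81%. Inside the rule, 3 cells held exactly 3 Alas2 UMIs and 4 held 5 to 7% globin.

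Globin-rich cells carried nearly as much globin RNA as the barcodes with few genes and as much other RNA as a typical cell of these libraries. Their adult globin UMIs had a median of 4988 (678 to 11077), beside 5707 in the barcodes under 1000 genes. Outside the globins they held a median of 15702.5 UMIs, beside 15549.5 in the 38150 other cells and 365 in the barcodes under 1000 genes. Of the 124, 108 lay within the middle 90% of other cells for these UMIs. The median number of genes was 4245 in globin-rich cells and 4268 in other cells.

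**Figure D1:**
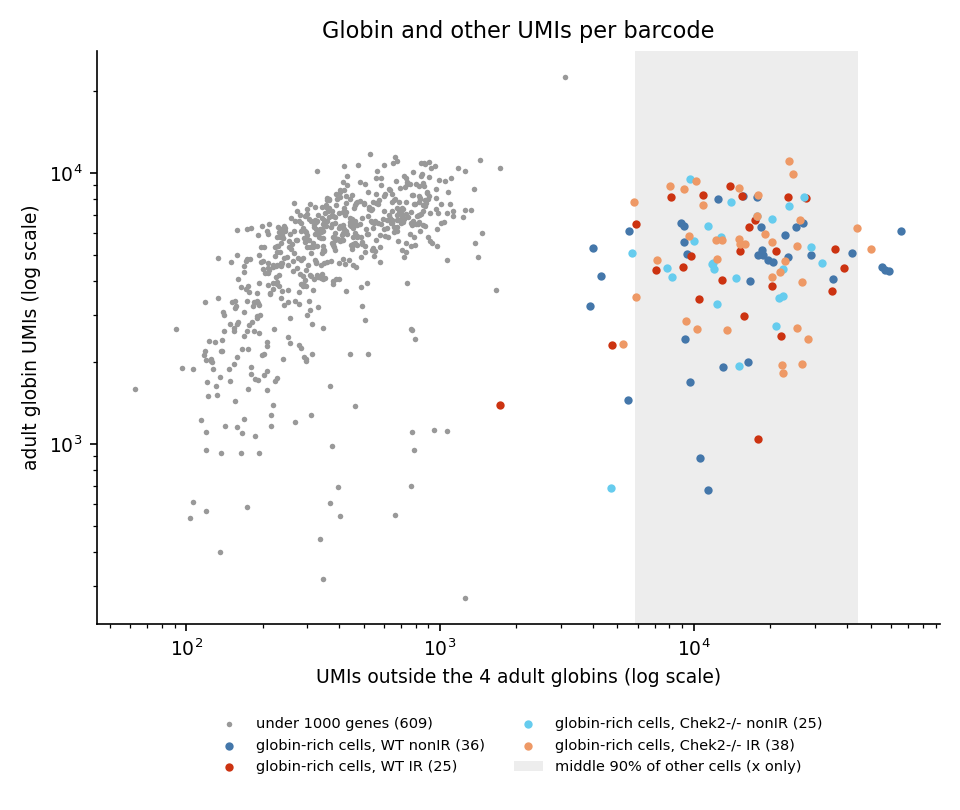
Each point is 1 barcode, with UMIs outside the adult globins on the horizontal axis and adult globin UMIs on the vertical axis, both on log scales. The 609 grey barcodes under 1000 genes and the 124 coloured globin-rich cells span a similar height, while most globin-rich cells lie in the shaded band that holds the middle 90% of other cells for non-globin UMIs.

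The median per library showed the same arrangement. Non-globin UMIs had a median of 17192 in globin-rich and 14324.5 in other cells of wild-type nonIR, 15517 and 14731 in wild-type IR, 13954 and 15997.5 in Chek2-/- nonIR, and 16782.5 and 17689.5 in Chek2-/- IR. Adult globin UMIs per globin-rich cell had medians of 4976.5, 4935, 4651 and 5463.5 in the same order. Neither quantity set 1 library apart.

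Globin was 5.50% to 57.4% of a cell's UMIs, with a median of 23.8%. The 14 cells at 5 to 10% globin held a median of 27488 other UMIs, the 32 cells at 10 to 20% held 21964, the 61 cells at 20 to 40% held 13954 and the 17 cells at 40% or more held 8080. Their median globin UMIs were 2555, 4223.5, 5590 and 6545 in the same order. The bins are cut on the ratio of these quantities, so their opposite order across bins follows from the construction. Across the 124 cells, globin and other UMIs had a Spearman rho of 0.0683, whereas across the 609 barcodes under 1000 genes rho was 0.668. Cells of 1 library share their preparation, so these values describe the cells and carry no test.

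The globin RNA itself had a similar makeup in both kinds of barcode. In globin-rich cells Hbb-bs gave 59.8% of adult globin UMIs, Hba-a1 16.1%, Hbb-bt 12.6% and Hba-a2 11.5%. In barcodes under 1000 genes the shares were 59.0%, 16.5%, 12.5% and 11.9% in that order. Alpha chains made up 27.6% and 28.5%, and 27.2% to 28.5% in the globin-rich cells of each library. The trace of globin in other cells, 1.87 UMIs per 10000, differed most for Hbb-bt, at 8.24% of globin UMIs, and for Hbb-bs, at 64.3%.

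Alas2 went with globin in every class of barcode. Globin-rich cells held 3 to 46 Alas2 UMIs with a median of 16, and barcodes under 1000 genes had a median of 15. Per 10000 globin UMIs there were 34.2 of Alas2 in globin-rich cells, 28.9 in barcodes under 1000 genes and 30.4 in other cells. By library the ratio in globin-rich cells was 34.6 in wild-type nonIR, 29.3 in wild-type IR, 34.4 in Chek2-/- nonIR and 36.8 in Chek2-/- IR. Across the 124 cells globin and Alas2 UMIs had a rho of 0.754, within a rule that required both.

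Beyond the globins and Alas2, the RNA of globin-rich cells was close to that of the other ovarian cells. Of 3657 genes with at least 100 UMIs in globin-rich cells, leaving out the 5 genes of the rule, 3518 (96.2%) lay within 1.5-fold of other cells when scaled to non-globin UMIs. In barcodes under 1000 genes 577 of the same genes (15.8%) did so. On the log2 scale over these genes Pearson r was 0.955 between globin-rich and other cells, 0.719 between barcodes under 1000 genes and other cells, and 0.779 between globin-rich cells and those barcodes. Genes are not independent, and these r are descriptive. There were 57 genes at 2-fold or more above other cells, 22 of them at 5-fold or more, and 5 at 0.5 or less. The minimum of 100 UMIs was set in the globin-rich cells, so genes low in them could drop out while genes high in them entered. The numbers of higher and lower genes therefore cannot be compared.

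The 15 genes highest relative to other cells were erythroid or interferon-inducible, apart from a few that came from single cells. The 5 genes of the rule led. Car2, the red cell carbonic anhydrase, was 65.0-fold higher on 243 UMIs in 33 cells (counting interval 56.4 to 74.5). Mkrn1, a ubiquitin ligase, was 12.5-fold higher (11.8 to 13.2) and present in 115 cells. Isg20 was 44.7-fold higher, Rsad2 41.0-fold and Ube2l6, which carries the ubiquitin-like protein ISG15, 23.9-fold. These 3 are also known as interferon-inducible genes, and they were high in barcodes under 1000 genes too. Cd74 and H2-Aa, of antigen presentation, and Lyz2, lysozyme of myeloid cells, were also among the leading 15. Of their UMIs 275 of 281, 108 of 109 and 486 of 502 lay in 1 cell each. Endothelial markers stood below the leading 15, such as Cldn5 at 4.85-fold in 9 cells and Cdh5 at 3.46-fold in 39.

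Erythroid genes were set against globin RNA in globin-rich cells and in barcodes under 1000 genes, and some but not all had similar values in both. After subtraction of the level of other cells, Bpgm, which makes the bisphosphoglycerate that lowers the oxygen affinity of hemoglobin, had 19.97 UMIs per 10000 globin UMIs in globin-rich cells and 21.96 in barcodes under 1000 genes. Mkrn1 had 18.1 and 16.3. Both differed little between the classes.
Among antioxidant and other enzymes, Gpx1 (glutathione peroxidase) had 13.9 and 14.3, Prdx2 (peroxiredoxin) 7.28 and 7.47, and Ube2l6 9.33 and 8.26. Car2 had 3.79 and 4.18. Of 9 mitochondrial clearance genes with at least 30 UMIs in globin-rich cells, 3 were 1.5-fold or more above other cells. These 3 were close, at 5.38 and 6.60 for the mitophagy receptor Bnip3l, 5.04 and 5.47 for Gabarapl2, and 3.33 and 3.32 for Map1lc3b. They were picked by their level in globin-rich cells, and values of the other genes of that list are not reported here. Red cell membrane genes were at 1.33 and 0.913 for the anion exchanger Slc4a1 and 4.10 and 2.45 for the skeletal protein Epb41.
Other genes were higher per globin UMI in globin-rich cells. Tent5c had 5.50 against 3.48, Trim10 0.557 against 0.360 and the peroxide-degrading enzyme Cat (catalase) 0.993 against 0.5999. Among iron genes, Slc25a37, the mitochondrial iron importer of erythroid cells, had 5.32 against 2.29. The ferritin chains Ftl1 and Fth1, which many cells make, had 47.6 against 24.9 and 35.6 against 10.7. Fech, which inserts iron into protoporphyrin to make heme, had 6.62 against 4.65. The summed list of iron genes reached 12.7% of non-globin UMIs in the highest globin-rich cell, beside a median of 0.537%. It was at 0.886% in Chek2-/- IR and at 0.522% to 0.575% in the other libraries. The ferritin values without the highest cell were not computed.

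**Figure D2:**
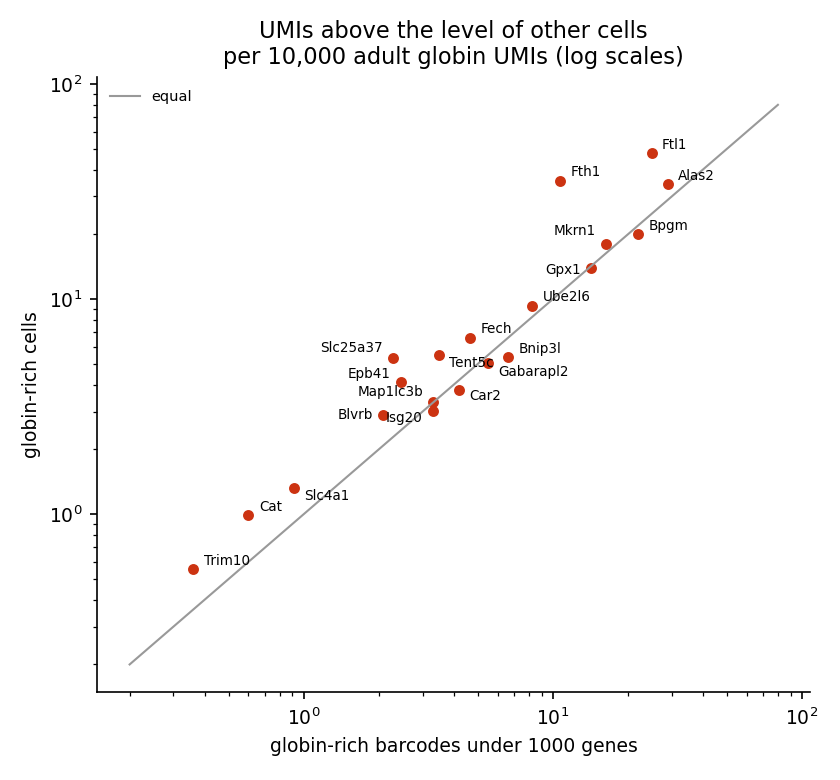
Points are reported genes of the heme, iron, membrane, enzyme or mitochondrial clearance lists with at least 30 UMIs in globin-rich cells and a ratio to other cells of 1.5 or more. Both axes are log scales of UMIs above the level of other cells per 10000 adult globin UMIs, with a line of equality. Bpgm, Mkrn1, Gpx1, Car2 and the mitochondrial clearance genes lie near the line, and Ftl1, Fth1, Slc25a37, Epb41, Tent5c, Trim10 and Cat are among those above it.

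Summed stromal and granulosa markers in globin-rich cells sat near the level of other cells, which other marker lists did not. Stromal markers (Dcn, Col1a1, Col1a2, Col3a1 and 6 more) made up 0.596% of non-globin UMIs in globin-rich cells and 0.554% in other cells, and granulosa markers (Inha, Serpine2, Foxl2, Amh and 6 more) 0.279% and 0.302%. None of the 10 stromal or 10 granulosa genes reached 1.5-fold, as for most genes of the profile above, of which 96.2% lay within that range. The ratio to other cells was 1.12 for Col1a2, 1.13 for Col3a1, 0.987 for Inha and 0.923 for Foxl2. In barcodes under 1000 genes the lists made up 0.238% and 0.132%.

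Endothelial markers made up 0.0621% in globin-rich and 0.0167% in other cells, with 7 of 7 measured genes past 1.5-fold, among them Cldn5 at 4.85 and Cdh5 at 3.46. Of the 3657 genes of the profile above 96.2% lay within 1.5-fold. Macrophage markers made up 0.0313% and 0.00620%, most of it Lyz2 of 1 cell. Smooth muscle and pericyte markers made up 0.0951% and 0.0675%, and epithelial markers 0.0199% and 0.0386%. Oocyte markers were lower, at 0.00767% against 0.158%.

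Erythroid lists other than globin were small parts of the RNA. Red cell membrane genes made up 0.0319% of non-globin UMIs in globin-rich cells, 0.00645% in other cells and 0.874% in barcodes under 1000 genes. Enzymes and late differentiation genes made up 0.407%, 0.120% and 12.1%, and heme synthesis genes without Alas2 0.0618%, 0.0508% and 0.671%. Erythroid transcription factors were at 0.0192%, 0.0161% and 0.0625%. Genes of DNA replication made up 0.0857% in globin-rich and 0.0999% in other cells, and genes of G2 and mitosis 0.172% and 0.166%. The mitochondrial share of UMIs had a median of 5.11% in globin-rich cells, 7.14% in other cells and 0.332% in barcodes under 1000 genes.

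**Figure D3:**
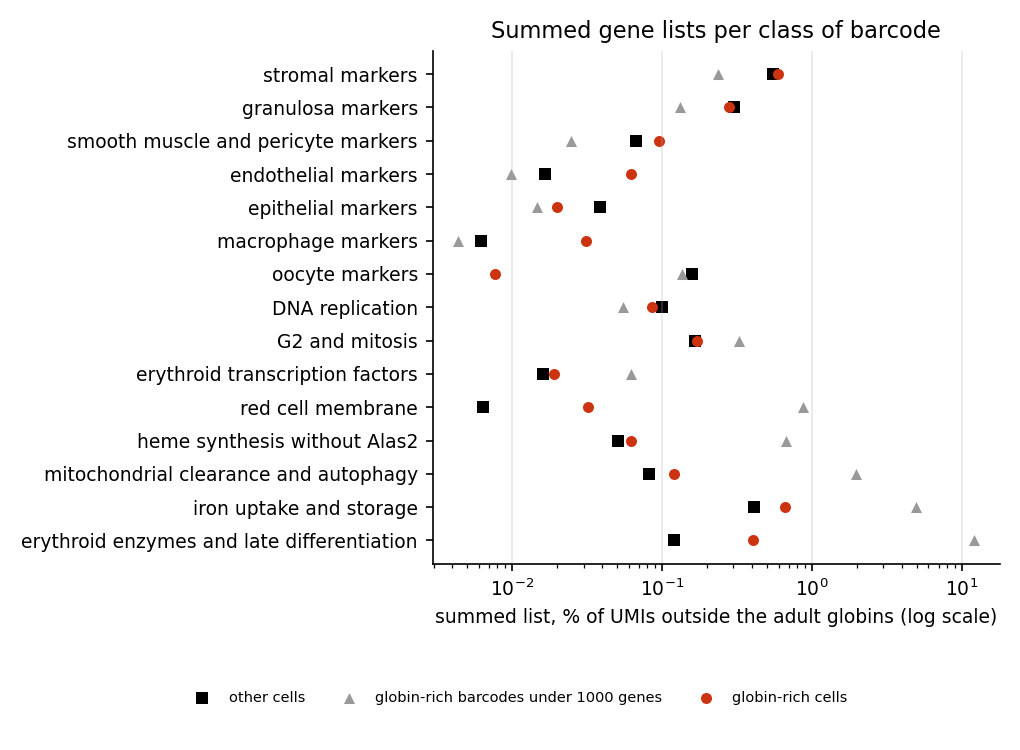
Each row is a gene list and each point its summed share of UMIs outside the adult globins, in percent on a log scale, over 124 globin-rich cells, 38150 other cells and 609 globin-rich barcodes under 1000 genes. For stromal, granulosa, replication and mitosis lists the globin-rich cells lie on or next to the other cells, and for the erythroid lists they lie between the other 2 classes.

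Cell by cell, nearly all globin-rich cells carried markers of an ovarian cell class, as did nearly all other cells. Each cell was assigned to the marker list with the highest share relative to other cells, given at least 5 UMIs. Stromal markers led in 50 globin-rich cells (40.3%, against 44.2% of other cells), granulosa markers in 34 (27.4% against 33.4%), and smooth muscle and pericyte markers in 20 (16.1% against 11.1%). Endothelial markers led in 9 (7.26% against 2.96%), epithelial in 8 (6.45% against 6.04%) and macrophage in 2. Oocyte markers led in none of the 124, which allows a share of up to 2.42%, beside 1.51% of other cells. In 1 globin-rich cell (0.806%) no list led, beside 0.160% of other cells. The minimum of 5 UMIs thus left few cells of either class without a list. Which cells were led by which list differed by library, since endothelial markers led in 4 cells of wild-type nonIR, none of wild-type IR, 3 of Chek2-/- nonIR and 2 of Chek2-/- IR.

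Each of 4 erythroid markers that the rule did not use was absent from most globin-rich cells. Of Slc4a1, Gata1, Klf1 and Hemgn, 89 of the 124 cells had no UMI, 31 had 1 of the genes, 3 had 2 and 1 had 3. Other markers of the list are not reported here, so these counts cover the 4 genes named. Gata1 and Klf1, the transcription factors that drive the erythroid program, had 0 and 6 UMIs in all. Gata1 was detected in 1.42% of other cells. Hemgn had 10 UMIs. Barcodes under 1000 genes were also sparse, with none of the 4 in 479 of 609 and with 2 UMIs each of Gata1 and Klf1. The absence of these 4 genes therefore does not decide the label. Some erythroid enzyme genes outside the rule were detected more widely. Ube2l6 had a UMI in 96.0% of globin-rich and 17.5% of other cells, Bpgm in 91.9% and 37.8%, and Blvrb in 76.6% and 76.3%. Slc4a1, the anion exchanger of the red cell membrane, was detected in 25.2% of globin-rich cells leaving out the 1 described next, in 20.4% of barcodes under 1000 genes and in 0.0524% of other cells.

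A single wild-type nonIR cell stood apart and carried the broad set of erythroid genes. It was chosen after its values were seen. It held 8439 UMIs and 1617 genes with 49.2% adult globin and 14 UMIs of Alas2, and it was the only globin-rich cell in which no ovarian list led. Slc4a1 had 13 UMIs in it, Hemgn 7 and Klf1 3. It held 3 of the 6 Klf1 and 7 of the 10 Hemgn UMIs of the 124 cells.
Red cell membrane genes made up 2.05% of its non-globin UMIs, beside 0.285% in the next highest cell and 0.0281% over the other 123. Heme synthesis without Alas2 reached 1.47% (next highest 0.176%) and DNA replication 1.10% (next highest 0.355%). Stromal and granulosa markers had 1 UMI each. Membrane, heme and replication genes were thus higher in this cell than in any of the other 123.

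A doublet caller that simulates pairs of cells (Scrublet) marked 8 of the 124 globin-rich cells (6.45%, 2.83 to 12.3) and 4.57% of the other cells. The doublet score had a median of 0.0827 in globin-rich and 0.0281 in other cells. Scrublet was run on cells within the limits, so barcodes under 1000 genes were not among its simulated pairs. It could therefore not model such a barcode joined with an ovarian cell. The study removed doublets with other callers after the deposited step. Whether a globin-rich barcode held RNA of 1 cell or of several was not tested.

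The response of p53 targets to irradiation was compared within the globin-rich cells, leaving the globins out of the denominator. In the wild type, 12 of 30 targets had at least 30 UMIs in both libraries together, and 6 of them were at least 1.5-fold higher in IR, against 9.49% of all 5923 genes measured. They were Ccng1 (cyclin G1) at 2.81, Phlda3, a repressor of AKT signaling, at 2.43, Bax, which opens the mitochondrial membrane in apoptosis, at 2.33, the nuclease gene Aen at 2.25, Rps27l at 1.72 and Mdm2, the ubiquitin ligase of p53, at 1.54. Counting intervals lay above 1 for 5 of the 6, Mdm2 being the exception (0.852 to 2.75). Single cells carried part of this, since 13 of the 27 Ccng1 UMIs and 9 of the 24 Mdm2 UMIs in IR came from 1 cell each. In a check added after seeing the data, each target was computed without the cell that held most of its UMIs in each of the 2 libraries. The share over all genes was not computed for this check. Ccng1 was then at 1.62 (0.721 to 3.58), Aen at 2.07 (0.894 to 4.93) and Mdm2 at 1.23 (0.584 to 2.48). Bax was at 2.27 (1.62 to 3.22), Phlda3 at 2.26 (1.47 to 3.51) and Rps27l at 1.68 (1.39 to 2.02), so that 5 of the 6 were still past 1.5-fold. The median ratio of the 12 was 1.47, or 1.35 without those cells, while the median of all genes was 0.979.

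Of the 12 targets 10 were above 1. Xpc was at 0.677 (0.251 to 1.52), and Plk2 was past 1.5-fold lower at 0.197 (0.0876 to 0.362), against 14.6% of all genes. Plk2 had 95 UMIs in nonIR, 42 of them in 1 cell, and 10 in IR, whereas in other cells it was 1.66-fold higher in IR. Endothelial markers, which had 904 UMIs in the nonIR and 15 in the IR globin-rich cells, moved in the same direction, and their part in the Plk2 value was not tested. Of the same 12 targets 9 were past 1.5-fold in other cells, against 5.52% of all 18420 genes measured there, and for 10 the ratio in other cells lay within the interval of the globin-rich cells.

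In Chek2-/- globin-rich cells 9 targets were measured, of which 1, Btg2, was past 1.5-fold higher at 1.60 (1.31 to 1.98), against 11.3% of all 5354 genes. Without the highest cell of each library it was at 1.70 (1.37 to 2.15), and Mdm2 was also past 1.5-fold at 1.60 (0.784 to 3.78). Plk2 was at 0.389 (0.215 to 0.683), Ddit4 at 0.617 (0.286 to 1.34) and Sesn1 at 0.631 (0.340 to 1.18), against 9.68% of all genes at 1.5-fold or more lower. Of these 3 only the interval of Plk2 lay below 1. Bax was at 1.23 (0.854 to 1.82) and Phlda3 at 0.930 (0.529 to 1.70). The median of the 9 was 1.16, and none of the 9 was past 1.5-fold in other cells. Whether the genotypes differed in this could not be tested with 1 library per condition.

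**Figure D4:**
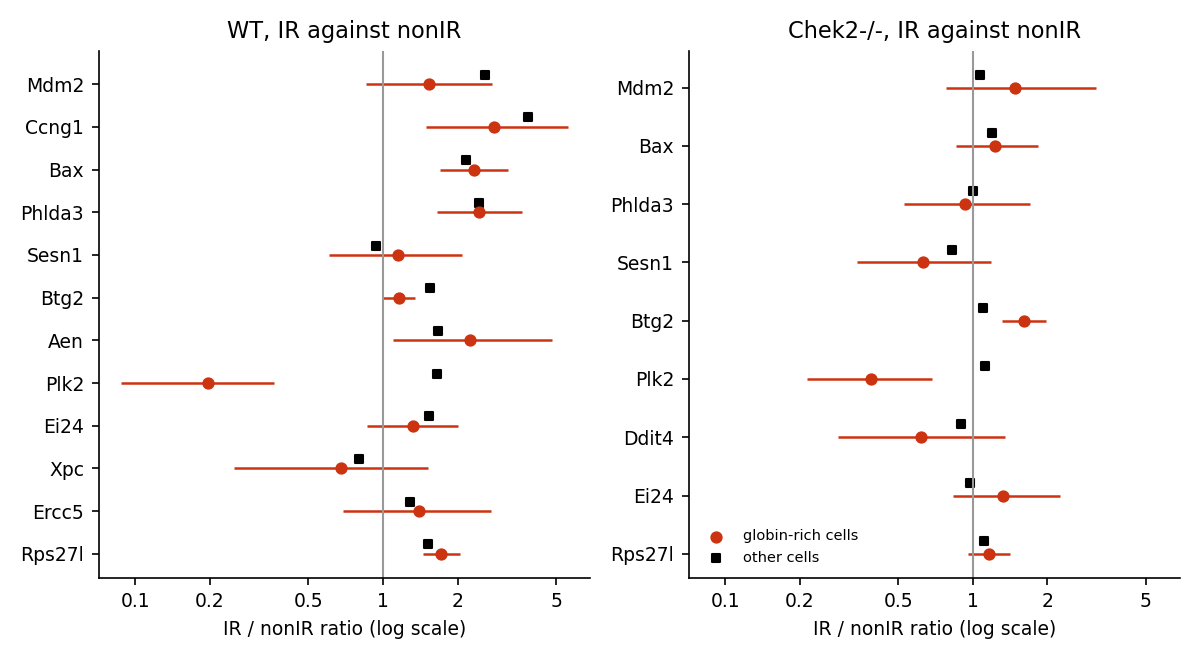
Ratios of IR to nonIR for p53 targets with at least 30 UMIs, on a log scale, with 1 library per condition. Red points with bars are globin-rich cells with exact 95% counting intervals and black squares are other cells. In the wild type (left) Ccng1, Bax, Phlda3, Aen and Rps27l lie above 1 with their intervals and Plk2 below it, and in Chek2-/- (right) only the interval of Btg2 lies above 1.

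All genes with at least 100 UMIs in a pair of libraries were ranked by their ratio between IR and nonIR globin-rich cells. In the wild type the 4 highest ratios were Cd74 (277 UMIs in IR and none in nonIR), H2-Aa (108 and 1), Cxcl10 (173 and 2) and H2-Ab1 (123 and 2), and 1 cell gave 275, 108, 167 and 121 of these UMIs. Nrn1 followed at 3.501 (2.65 to 4.69). The 5 lowest were the endothelial genes Cldn5 (0 against 170 UMIs), Cd93 (0 against 141), Ctla2a (1 against 124) and Egfl7 (6 against 283), with Pcdh17 (5 against 140). Endothelial markers led in 4 nonIR cells and in no IR cell, and the summed list was at 0.0307 (0.0166 to 0.0493) in globin-rich cells and 1.17 in other cells.
Granulosa markers were 1.65-fold higher in IR with 7 of 10 genes past 1.5-fold (9.49% of all genes), and they led in 10 of 25 IR and 9 of 36 nonIR cells. Without the 4 cells of each library that held the most granulosa UMIs the ratio was 1.74 (1.59 to 1.91). Red cell membrane genes were at 0.379 (0.288 to 0.488) with 3 of 3 genes lower (14.6% of all genes), on 72 and 342 UMIs, 88 of the latter in the cell that stood apart. Genes of G2 and mitosis were at 0.910 (0.833 to 0.992), and at 0.326 (0.255 to 0.408) without the 4 highest cells of each library. Heme synthesis genes without Alas2 were at 0.878 (0.752 to 1.02).

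In Chek2-/- globin-rich cells the highest ratios were Lyz2 (487 and 1 UMIs, 486 in 1 cell), Cenpf at 25.2 (10.9 to 104.7), Hmox1, which degrades heme, at 20.04 (10.99 to 46.6, with 285 of 328 UMIs in 1 cell), Cenpa at 14.4 and Ube2c at 11.6. The lowest were Wfdc10 at 0.193, AC167229.1 at 0.195, Cldn5 at 0.221, Rgcc at 0.249 and Mfap5 at 0.257. Genes of G2 and mitosis were 6.58-fold higher (5.51 to 7.98), with 13 of 13 past 1.5-fold (11.3% of all genes), against 1.28 in other cells. Most of it came from 4 of the 38 IR cells, found after seeing the data, which held 1256 of the 1459 UMIs of the list at 0.554 to 1.01% of their non-globin UMIs, and 3 of which Scrublet marked. In nonIR the 4 highest cells held 84 of 128 UMIs. Without the 4 highest cells of each library the ratio was 2.51 (1.82 to 3.59). The list was low in the nonIR globin-rich cells, at 0.0320% of non-globin UMIs beside 0.149% in other cells, and near other cells in IR, at 0.212% beside 0.192%, but without those cells it was at 0.0372% in IR and 0.0147% in nonIR. A single cell gave 116 of the 270 Ube2c UMIs in IR. Red cell membrane genes, lower in wild-type IR, were at 1.39 (1.08 to 1.80) here, on 216 and 90 UMIs. Granulosa markers, higher in wild-type IR, were at 0.744 (0.686 to 0.806) here. They were at 0.648 (0.573 to 0.733) without the 4 cells of each library that held the most granulosa UMIs. Erythroid enzymes were at 1.16 (1.09 to 1.24) and heme synthesis genes without Alas2 at 1.03 (0.870 to 1.22).

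Bulk libraries, which the rule did not use, give genes of the erythroid lists in whole ovaries with 6 replicates per condition. Other ovarian cells also make many of these genes, so their bulk levels are not those of erythroid cells alone. In bulk tissue fewer cells of a type and less RNA per cell cannot be told apart. P-values of the group tests weigh a difference against a spread between libraries that is estimated over all 4 groups together. Adult globins summed to 220 CPM at the lowest, 458 at the median and 918 at the highest in wild-type nonIR, and to 226, 347 and 426 in wild-type IR. They ran 197, 634 and 10298 in Chek2-/- nonIR and 301, 452 and 6945 in Chek2-/- IR. Apart from 1 library in each Chek2-/- group the 4 groups overlapped.
Alas2 ran 1.86, 4.11 and 7.76 CPM in wild-type nonIR, 3.17, 3.63 and 4.45 in wild-type IR, 1.66, 6.68 and 130 in Chek2-/- nonIR, and 2.80, 4.83 and 92.4 in Chek2-/- IR. The same 2 libraries were highest.

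Those 2 libraries, Chek2-/- nonIR replicate 5 and Chek2-/- IR replicate 2, stood apart for many blood genes. Slc4a1 was at 83.3 CPM in replicate 5 and at 35.1 in replicate 2, while the other 5 libraries of each group reached at most 1.23. In replicate 5, 15 of 18 red cell membrane genes and 17 of 21 enzymes were above all others of the group, and in replicate 2, 12 and 13. Heme synthesis genes did so in 7 and 6 of 10 and transcription factors in 6 of 12 in each, beside 14.002% of all tested genes in replicate 5 and 15.02% in replicate 2. Per 10000 globin counts, Slc4a1 was at 80.9 in replicate 5 against 8.13 in the others of its group and Alas2 at 127 against 102.
Neutrophil markers summed to 1621 CPM in replicate 2, where the others of its group reached at most 2.83, and to 10.1 in replicate 5, where they reached 2.87. Macrophage markers were at 248 CPM in replicate 2 against at most 64.1. Stromal and endothelial markers lay within the range of the other 5 in both libraries. Granulosa markers did so in replicate 2, while in replicate 5 they were at 2133 CPM, above the highest of the others at 2005. Platelet markers were at 5.39 CPM in replicate 5, below the lowest of the others at 7.88. There were 25 genes at 1 CPM or more and above 5 times the median of the other libraries in both, 14 of them in the erythroid lists. In replicate 2 the genes past this limit numbered 241, of which 15 were in the erythroid lists, and in replicate 5 they were 48, of which 18 were.

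No erythroid gene passed the test with a 2-fold change after irradiation in the bulk. Of 65 tested genes of the globin, heme, membrane, transcription factor and enzyme lists, none passed an adjusted p of 0.05 with a 2-fold change in wild-type ovaries by edgeR's quasi-likelihood test, against 1.08% of all genes, and 8 had an unadjusted p under 0.05 (12.3% against 11.4% of all genes). Without the 2 libraries that stood apart it was 13 of 64 (20.3% against 11.2% of all genes). Wild-type IR replicate 3 carried much of this excess, with Ikzf1 at 19.0 CPM against 1.07 to 1.62 in the other 5 of its group and Nfe2 at 11.5 against 0.224 to 0.338. Without it as well, a setting added after seeing the data, 5 of 62 had such a p (8.06% against 9.92% of all genes). The median log2 fold change was -0.01 over the 65 genes and -0.00 over all genes. DESeq2 and limma-voom each called 1, Ermap. In Chek2-/- ovaries none passed (0.00373% of all genes), 2 had an unadjusted p under 0.05 (3.08% against 4.401% of all genes), and DESeq2 and limma-voom called none. The 4 globins had log2 fold changes of -0.64 to -0.36 in the wild type and of -1.10 to -0.40 in Chek2-/-, all with adjusted p of 0.89 or more by edgeR. Without the 2 libraries the Chek2-/- values of Hba-a1, Hba-a2, Hbb-bs and Hbb-bt were -0.42 to -0.22, with a median of -0.35 against -0.53.

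Ermap, which encodes an erythroblast membrane-associated protein, is given because DESeq2 and limma-voom called it. It ran 0.341, 0.722 and 0.991 CPM in wild-type nonIR and 2.06, 2.71 and 4.92 in wild-type IR, so that the groups did not overlap. In Chek2-/- it ran 0.848, 1.299 and 9.90 in nonIR and 0.856, 1.10 and 6.83 in IR, with the highest values in the 2 libraries that stood apart. The wild-type log2 fold change was 2.18 (SE 0.60, adjusted p = 0.055 by edgeR).
Without the 2 libraries, which enter only the shared estimate of spread, it was 2.18 (SE 0.27, adjusted p = 1.55e-05 by edgeR; 2.02 and 4.59e-05 without wild-type IR replicate 3 as well), and the difference between the genotypes was -2.30 (SE 0.40, adjusted p = 0.0025). With all libraries that difference was -2.54 (SE 0.81, adjusted p = 0.19). In globin-rich cells Ermap had 2 UMIs in all, and in the 38150 other cells 85. Tmem14c, a heme transport gene that many tissues use, had a log2 fold change of -0.18 in wild-type ovaries (SE 0.04, adjusted p = 0.018 by edgeR), short of 2-fold, from 96.1 to 111 CPM in nonIR to 87.8 to 101 in IR.

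Before irradiation 1 gene of the erythroid lists, Car2, was called between the genotypes with the 2-fold limit. In Chek2-/- nonIR libraries other than replicate 5, Car2 had 310 counts per 10000 globin counts. Per 10000 globin UMIs it had 3.85 UMIs in globin-rich cells and 4.18 in barcodes under 1000 genes. Which cells carried the bulk difference in Car2 was not tested. That was 1 of 65 genes against 0.788% of all genes, and 34 had an unadjusted p under 0.05 (52.3% against 21.6% of all genes). With the same limit DESeq2 called 2 and limma-voom 1. Without a minimum fold 3 of 65 passed an adjusted p of 0.05 by edgeR, beside 1430 of all 26790 genes. Without the 2 libraries that stood apart 6 of 64 did, beside 1618 of all 26516. Car2 ran 6.15, 8.68 and 11.6 CPM in wild-type nonIR and 12.4, 18.7 and 49.6 in Chek2-/- nonIR, with no overlap. The log2 fold change was 1.36 (SE 0.27, adjusted p = 0.0056 by edgeR), and 0.95 (SE 0.16, adjusted p = 0.0025) without the 2 libraries, when it fell short of 2-fold.
The 4 globins had a median log2 fold change of 2.04 between the genotypes with all libraries and 0.09 without the 2, and the number of list genes with an unadjusted p under 0.05 went from 34 of 65 to 16 of 64, which is 25% against 21.5% of all genes without the 2. For the difference in irradiation response between the genotypes none of 65 was called (0.623% of all genes), 5 had an unadjusted p under 0.05 (7.69% against 9.14% of all genes), and DESeq2 and limma-voom called none. Without the 2 libraries 10 of 64 had one (15.6% against 9.53% of all genes), and without wild-type IR replicate 3 as well 5 of 62 (8.06% against 8.80%).

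**Figure D5:**
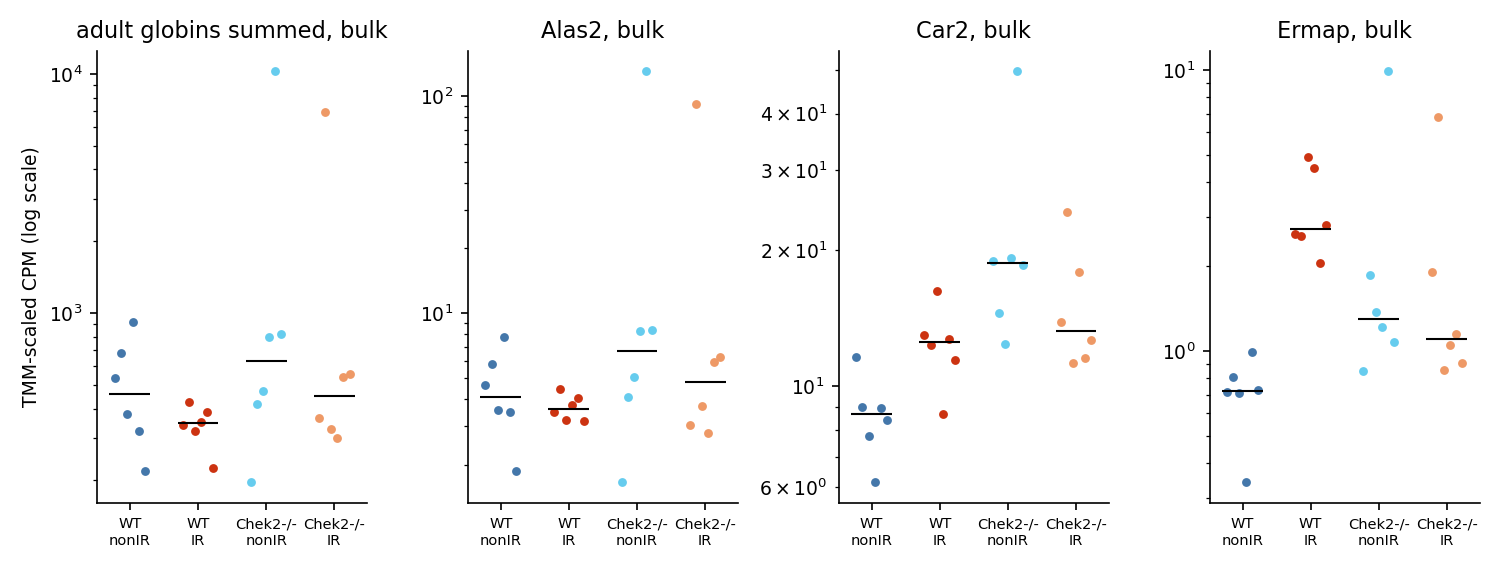
TMM-scaled CPM on log scales in the 24 bulk libraries for the summed adult globins, Alas2, Car2 and Ermap, with 1 point per library and a line at the group median. Chek2-/- nonIR replicate 5 and Chek2-/- IR replicate 2 lie highest in each panel of their group, wild-type IR lies above wild-type nonIR for Ermap without overlap, and Chek2-/- nonIR lies above wild-type nonIR for Car2.

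Across the bulk libraries globin RNA varied with Alas2 and less with the average of the remaining genes of the erythroid lists. Values are deviations from group means of log2 CPM, averaged over the 4 globins and over the remaining list genes without Alas2. Each gene has the same weight, also those at a high level in libraries with little globin. Bpgm had a median of 225 CPM and Ldb1 of 165 in Chek2-/- nonIR libraries other than replicate 5. How far such genes set the relation was not tested. Over 24 libraries Pearson r was 0.861 (permutation p = 6e-05, two-sided) and Spearman rho 0.682 (permutation p = 0.00042). Without the 2 libraries farthest from the median, which are the same pair, r was 0.199 (permutation p = 0.37) and rho 0.482 (permutation p = 0.025). Wild-type IR replicate 3 was kept there, with the remaining list genes at a deviation of 0.642 and the globins at -0.0475. The relation without that library as well was not computed, so how far r rested on the pair was not tested. Between the globins and Alas2 alone r was 0.995, and 0.977 over the other 22 libraries (permutation p = 1e-05 with and without the pair, which is the floor of 100000 permutations and the smallest p they can give).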

How the data were processed

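Single-cell libraries (10x 3′ chemistry) were demultiplexed with bcl2fastq 2.20.0.422 and aligned to mm10 by the authors with Cell Ranger. The deposited values are raw UMI counts per gene and barcode, before the cell filters and doublet removal of the study. Bulk reads were trimmed with Trim Galore 0.6.5 and quantified by the authors with Salmon 1.3.0, and the deposited values are estimated counts per gene, which were rounded to whole numbers.

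Members and gene lists were chosen with earlier results of these data known. Single-cell UMIs were summed over cells of a class and scaled to the UMIs outside the adult globins. Ratios carry exact conditional Poisson 95% intervals, computed after 0.5 was added to each sum for the ratio only, and shares carry Clopper-Pearson intervals. Both cover counting error only. Genes needed at least 30 UMIs over both libraries for an irradiation ratio and 100 to be ranked. Named genes were Alas2, the globins, the most counted members of each list, the 15 highest ratios to other cells, the 5 highest and 5 lowest irradiation ratios, p53 targets with at least 30 UMIs, and in the bulk the called list genes or, with none called, those with the smallest adjusted p.

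Bulk counts of 26790 genes with at least 10 counts over all libraries were fitted with edgeR 4.0.16 (TMM scaling, quasi-likelihood test, 4 groups in 1 model) with Benjamini-Hochberg adjustment. Genes were called at an adjusted p up to 0.05 when the change was 2-fold or more. DESeq2 1.42.0 and limma-voom 3.58.1 were alternatives, and the fit was tested on simulated data. Replicate numbers were not treated as pairs. Ahsp was not analysed here, and some genes that the naming rule covers are not reported here. Promoters came from RefSeq (GRCm38.p6).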

Additional observations from a re-analysis of the deposited data

Results flagged for a closer look

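In 52 gene and group combinations of 6 bulk libraries, 23 held a library whose gap to the nearest other exceeded Dixon's 95% critical share of the range of the group. Chance gives about 1 in 20 for a single test on a gene fixed beforehand. Some of these genes were named from the same bulk results, and the globins enter both singly and summed. The rate of 1 in 20 therefore does not apply to the count of 23. Of these, 18 lay in Chek2-/- nonIR replicate 5 or Chek2-/- IR replicate 2. In Chek2-/- nonIR replicate 5 the summed adult globins were at 10298 CPM, Hba-a1 at 1994, Hba-a2 at 3425, Hbb-bs at 3841 and Hbb-bt at 1038. In the same library Alas2 was at 130 CPM, Slc4a1 at 83.3, Car2 at 49.6 and Ermap at 9.90.

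In Chek2-/- IR replicate 2 the summed adult globins were at 6945 CPM, Hba-a1 at 1320.2, Hba-a2 at 2289.6, Hbb-bs at 2915 and Hbb-bt at 421. Alas2 was at 92.4 CPM there, Slc4a1 at 35.1, Ikzf1, a lymphoid and erythroid transcription factor, at 13.1 and Ermap at 6.83.

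The other 5 lay mostly in wild-type IR. Replicate 3 was highest for Ikzf1 at 19.0 CPM and the water channel Aqp1 at 13.6, replicate 5 for Hbb-bt at 31.8, and replicate 6 for Tmem14c at 100.8. Aqp1 was highest in Chek2-/- nonIR replicate 6 at 42.0 CPM.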

How the results depend on the processing

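The share of globin-rich cells (0.324%) was 1.16% with a minimum of 200 genes, 0.261% with at least 10 Alas2 UMIs and 0.204% with adult globins at 20% or more. Wild-type p53 targets past 1.5-fold numbered 6 of 12 measured, 3 of 5 with a minimum of 100 UMIs (6.16% of all genes) and 3 of 5 with globins at 20% or more (12.4%). In subsets added after seeing the data they numbered 3 of 5 in cells led by stromal markers (12.7%), 3 of 4 in those led by granulosa markers (9.90%), 2 of 2 in barcodes under 1000 genes (17.7%) and 24 of 30 in other cells (5.52%). In Chek2-/- the number was 1 of 9, and 0 of 9 at 2-fold (3.90%), 2 of 7 without Scrublet calls (10.2%), and after seeing the data 0 of 3 in cells led by granulosa markers (13.2%). When each target lost the highest cell of both libraries, also a setting added after seeing the data, it was 2 of 9. The share over all genes was not computed for that setting.

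In the bulk the wild-type irradiation count went from 0 to 1 with no minimum fold (Tmem14c), and to 1 (Ermap) with edgeR's filterByExpr, DESeq2, limma-voom, the replicate block, or without the 2 libraries that stood apart. The genotype count went from 1 to 3 with no minimum fold (Car2, Prdx2, Tmod1), 3 with filterByExpr (Car2, Ermap, Slc4a1), 2 with DESeq2 (Car2, Ermap) and 0 without the 2 libraries. The interaction count went from 0 to 1 (Ermap) without them, an alternative added after seeing the data. The counts without wild-type IR replicate 3 as well were 1 (Ermap), 0 and 1 (Ermap) in that order, and leaving out replicate 3 alone changed none of the 4 counts. The causes were not tested. Deviations of same-numbered libraries correlated at -0.01 to 0.42, and 12 of 24 libraries correlated best with their own number. Because only 6 of 12 pairs were over 0.1, the numbers were not used as pairs. Whether same-numbered libraries shared an effect was not tested. The replicate block changed no call other than that of Ermap. With 1 single-cell library per condition, differences between those libraries have no replicate error.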
